A study of Bos taurus with 12 samples.

Results

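Mucins are large glycoproteins whose serine- and threonine-rich stretches carry dense O-linked sugar chains, and they form the barrier at the surface of wet epithelia. Some are held in the apical membrane and others are secreted as gel. Secreted mucosal proteins such as DMBT1 and REG4 are released by epithelial cells into the fluid over this barrier and bind microbes or sugars there. In the uterus the luminal and glandular epithelium carries this coat, and membrane mucins such as MUC1 are known for their role at the surface that an embryo meets.

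The genes described here are 7 members of this group, namely the membrane mucins MUC1, MUC4, MUC13, MUC15 and MUC20 and the secreted proteins DMBT1 and REG4. They were measured in endometrial biopsies of 3 cows (Bos taurus) that received povidone-iodine (PVP-I), an iodine-releasing antiseptic, into the uterus. Each cow was biopsied on days 0, 2, 7 and 14, which gave 4 groups of 3 biopsies and 12 single-colour Agilent arrays, 1 per biopsy. All 3 cows received the antiseptic, the labels call them fertile, and no untreated cow was sampled, so that the effects of treatment, time, cycle stage and repeated biopsy on a day cannot be told apart. The labels give no age, breed, uterine horn or cycle stage for a sample, and do not say whether the day 0 biopsy preceded the antiseptic.

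The members were chosen by name with their day differences in these same arrays already known. Their differences between days are therefore given as a description, with a standard error (SE) but no test. Of the 7 genes, 5 had probes carrying their name in the scanner files (11 probes), and MUC13 and MUC20 were found through the accession of their transcript, with 2 probes each. This gave 15 probes for 7 genes, against 12999 named genes in all with a usable probe. A probe was usable where the scanner software called it well above background on at least 3 of 12 arrays, and 13 probes of 6 members were. MUC15 was not among them.

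The arrays carry 60-base probes, and the probes shown here are those that the results refer to and that lie in, or may lie in, coding sequence. They are as the scanner files list them, read 5′ to 3′, with each probe's first base in the transcript and its place in the cow genome build of the files (Btau_3.1). The REG4 probe that starts at base 377 lies on the minus strand at chr3:25503607-25503666, and its capitals mark 12 bases that read Trp-Ile-Gly-Leu in an open frame, a stretch typical of the C-type lectin fold. The MUC13 probe at base 814 lies at chr1:70521652-70521711 (minus strand), the MUC20 probe at base 1040 at chr1:71668614-71668673 (plus strand), and the MUC4 probe at base 2851 at chr1:71688334-71688478 (minus strand). The MUC4 probe spans 145 bases of genome for its 60 bases, and the MUC1 probe at base 1233 spans 176 bases at chr3:16809895-16810070 (plus strand), so that both cover a stretch absent from the transcript. Only the first 30 bases are shown for the DMBT1 probe at base 5568, which lies at chr26:43062873-43062932 (plus strand).
REG4 at base 377: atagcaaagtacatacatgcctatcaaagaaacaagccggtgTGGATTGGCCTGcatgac
MUC13 at base 814: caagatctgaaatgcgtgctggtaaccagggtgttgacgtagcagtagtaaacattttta
MUC1 at base 1233: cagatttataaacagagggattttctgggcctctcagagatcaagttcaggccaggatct
MUC20 at base 1040: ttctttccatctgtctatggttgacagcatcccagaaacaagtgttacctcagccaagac
MUC4 at base 2851: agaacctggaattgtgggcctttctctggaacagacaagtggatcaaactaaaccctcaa
DMBT1 at base 5568: ggaaccagattctttggcctgtggtgtata

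The other probes lie at chr3:16808518-16808574, chr3:16809458-16809517, chr3:16809662-16809721 and chr3:16811936-16811995 for MUC1 (bases 145, 906, 1110 and 1995), at chr1:70511055-70511114 for MUC13 (base 1649) and at chr1:71674784-71674843 for MUC20 (base 1532). Those of MUC15 lie at chr15:56891862-56891921 (base 1403) and chr15:56890320-56890379 (base 2946), and the other REG4 probe lies at chr3:25503327-25503386 (base 657). The MUC20 probe at base 1532 and the MUC4 probe lie on opposite strands 13490 bases apart, which makes these the closest pair of members by position. The brightest probe stands for each gene, and it is the one at base 1995 for MUC1, 1649 for MUC13, 1532 for MUC20 and 657 for REG4. Which exon or untranslated region a probe lies in was not analysed here.

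The sample names conflict, and every result by day rests on how that is settled. The value table that the authors deposited and the scanner files name different samples for 10 of 12 arrays, although each table column matches 1 scanner file with a correlation of 1.0. The table's names are used throughout. Under them, 2, 12 and 6 probes set the arrays of cows 1, 2 and 3 at least 8-fold apart from all others. Under the scanner links 0 probes did so for each cow. Under the table's names each cow also fills 1 slide, so cow and slide cannot be told apart, nor can day and position on the slide. These probes may thus follow the slide, and their counts settle neither the cow nor the day of an array. On 11 arrays, 71.3 to 76.0% of probes were well above background, and 63.2% were on the day 2 array of cow 3. The biopsies carried epithelial RNA on every array, since 11 of 12 epithelial markers were measured and all 11, keratins and EPCAM included, were well above background on each of the 12 arrays.

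Levels are log2 signals relative to the array's 75th percentile, so that a level above 0 puts a probe among the brightest of its array, and they are not compared between probes. REG4, a small secreted C-type lectin of the gut lining that binds mannan, moved furthest among the members. Its day 0 levels were -6.84, -6.97 and -7.22 in cows 1, 2 and 3, in that order throughout. On day 2 it was 0.52, -0.62 and -7.25. The day 2 biopsies of cows 1 and 2 were thus far above day 0. That of cow 3 was not well above background and lay close to its day 0 level. On day 7 it was 3.59, 4.35 and -0.04, the highest value of each cow's 4 days, and no day 7 biopsy overlapped with day 0. On day 14 it was -2.97, 2.05 and -5.67, so that all 3 cows were below their own day 7 level and above their own day 0 level, with cow 2 staying highest.

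REG4 was well above background on no array of day 0. Its fold changes are therefore taken against the lowest signal well above background on the dim arrays. So taken, it was at least 580-fold higher on day 7 and at least 20.4-fold higher on day 14 than on day 0. These bounds, like those given below, are averages over the 3 cows and hold for this processing only. With normexp background correction the log2 changes on days 2, 7 and 14 were 2.68, 6.67 and 2.71. On day 2 it was 17.1-fold higher, which is no lower bound, since cow 3 was not well above background and changed by -0.03. The day 14 value rests largely on cow 2, since the fitted log2 change was 2.71 without that cow in place of 4.82, and cow 3 changed by 1.56. The fitted log2 changes were 4.56, 9.65 and 4.82 (SE 1.50, n = 3 cows). From day 7 to day 14 the log2 change was -4.83 ± 1.50 (SE), with differences of -6.57, -2.30 and -5.63 in cows 1, 2 and 3. The probe at base 377, whose sequence is shown above, followed the same course with values of -8.62, -9.02 and -8.43 on day 0 and of 1.17, 1.70 and -2.55 on day 7, at least 100-fold higher. It gave 4.73-fold on day 2 and 2.95-fold on day 14, with cow 3 not well above background on either day. Over the 12 arrays both REG4 probes correlated with r = 0.99, a description of arrays from only 3 cows.

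DMBT1, a secreted scavenger receptor that binds bacteria and mucins, was the member whose biopsies after day 0 were all above all day 0 biopsies. Its day 0 levels were -2.72, -2.94 and -3.29 (cows 1, 2 and 3). It was 2.87, 1.18 and 0.08 on day 2, and 2.26, 2.51 and 5.06 on day 7. On day 14 it was 1.14, 2.81 and -1.0. The log2 change since day 0 was 4.36, 6.26 and 3.97 on days 2, 7 and 14 (SE 1.1, n = 3), which is 20.6-fold, 76.8-fold and 15.6-fold. Days 2, 7 and 14 overlapped with each other, and the differences of 1.90 between days 7 and 2 and of -2.30 between days 14 and 7 had SDs over cows of 2.84 and 3.34. In cow 3 these differences were 4.98 and -6.06, whereas they were -0.61 and -1.13 in cow 1 and 1.33 and 0.30 in cow 2.

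**Figure D1:**
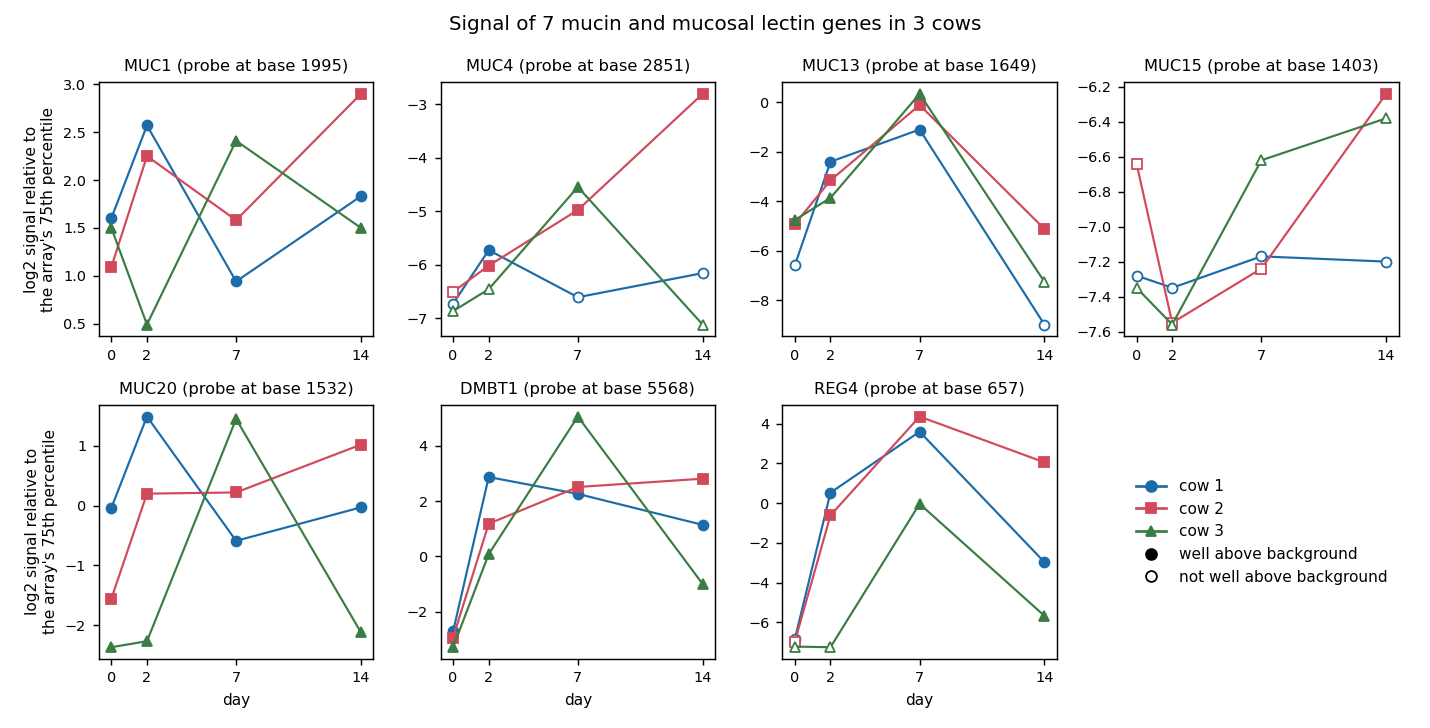
Log2 signal relative to the array's 75th percentile (y axis, a scale of its own in each panel) against day (x axis) for the probe that stands for each of 7 members, with 1 line per cow, filled points well above background and open points not. REG4 and MUC13 are highest on day 7 in all 3 cows, DMBT1 is lowest on day 0 in all 3, and the lines of MUC1, MUC4 and MUC20 cross. MUC15 had no usable probe and is shown by the one at base 1403.

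MUC13, a membrane mucin of the gut epithelium, was higher on days 2 and 7 than on day 0. Cows 1, 2 and 3 had -6.59, -4.93 and -4.76 on day 0, and their day 2 levels were -2.41, -3.16 and -3.87. On day 7 it was -1.11, -0.12 and 0.33, above every biopsy of the other days. On day 14 it was -8.98, -5.12 and -7.25, and it was well above background in cow 2 alone, as it had been in cows 2 and 3 on day 0. With cow 1 not well above background on either day, these signals give no order of day 14 and day 0. Days 2 and 7 overlapped neither with day 0 nor with each other, whereas day 14 overlapped with day 0.

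The log2 change of MUC13 since day 0 was 2.28, 5.13 and -1.69 on days 2, 7 and 14 (SE 0.78, n = 3). The last of these was -0.38 with normexp background correction and -0.17 at the probe at base 814, which was below background on both days. The day 7 change was close in the 3 cows, at 5.48, 4.81 and 5.09, which is 35.0-fold on average. Cow 1 was not well above background on day 0, and the day 7 change was 3.33 with normexp background correction, so the fold is uncertain. From day 7 to day 14 the log2 change was -6.82 ± 0.78 (SE), and -3.71 with normexp background correction. Only 1 of the 3 day 14 biopsies was well above background at this probe, so its size is uncertain. The probe at base 814 was well above background on no array of days 0 and 14 and on all 3 of day 7, at least 8.75-fold above day 0 and at least 9.78-fold above day 14. Its day 7 values of -3.86, -3.43 and -2.95 kept the order of the cows seen with the other probe, and both probes correlated with r = 0.91 over 12 arrays.

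MUC1, the widely expressed membrane mucin of uterine epithelium, was well above background on every array with 4 of its 5 probes, and these differed in whether the 3 cows shared a direction. The level at its brightest probe was 1.60, 1.09 and 1.50 on day 0, and 2.57, 2.25 and 0.49 on day 2. It was 0.94, 1.58 and 2.41 on day 7, and 1.83, 2.90 and 1.50 on day 14. All 4 days overlapped, and each cow had its highest level on another day, cow 1 on day 2, cow 2 on day 14 and cow 3 on day 7. The log2 change since day 0 was 0.37, 0.24 and 0.68 (SE 0.60, n = 3), in each case within about 1 SE of 0.

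At the probes at bases 906, 1110 and 1233 all 3 cows were higher on days 2 and 14 than on day 0, unlike at the brightest probe, where cow 3 was lower on day 2. On day 14 the dim probe at base 145 was also higher in 3 of 3 cows. The 4 bright probes correlated with r from 0.88 to 0.99 in 6 pairs over 12 arrays. The probe at base 1110 gave larger mean changes of 0.91, 0.75 and 1.29 (SE 0.60), and its day 14 values of -2.59, -1.27 and -2.61 lay just above its day 0 values of -2.78, -3.40 and -4.15. The probe at base 1233 gave 0.81, 0.66 and 1.42 (SE 0.68) with overlap on every day. The dim probe at base 145 was well above background on no array of day 0 and on all 3 of day 14, at least 1.56-fold higher, and correlated with the others at r from 0.59 to 0.71. On day 14 cow 1 was higher by only 0.02, 0.19 and 0.21 at bases 906, 1110 and 1233, less than the SEs of 0.56, 0.60 and 0.68. Day 14 did not overlap with day 0 at bases 145 and 1110. Of all genes, 15.1% lay wholly higher on day 14 than on day 0. Probes of 1 gene do not vary independently, so nothing is read from how many of them were higher.

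MUC20, a membrane mucin known from kidney and placenta, likewise differed more between cows than between days. It was -0.04, -1.56 and -2.37 on day 0, and 1.49, 0.20 and -2.27 on day 2. On day 7 it was -0.59, 0.22 and 1.45, and on day 14 it was -0.03, 1.02 and -2.12. Cow 3 was lowest on days 0, 2 and 14 and highest on day 7, with a change of 3.82 from day 0 to day 7 against 1.78 in cow 2 and -0.55 in cow 1. The mean log2 changes since day 0 were 1.13, 1.68 and 0.94 (SE 0.98, n = 3), and all days overlapped. Its probe at base 1040, which correlated with the other at r = 0.97, gave 1.17, 1.61 and 1.12 (SE 0.99).

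MUC4, a very large membrane mucin that can bind the receptor ERBB2, was near the detection limit and was well above background on 5 of 12 arrays. Its level on day 0 was -6.73, -6.51 and -6.87, well above background in no cow. It was -5.73, -6.02 and -6.46 on day 2, and -6.61, -4.98 and -4.55 on day 7. On day 14 it was -6.16, -2.81 and -7.12. The day 14 biopsy of cow 2 was the brightest of the 12, while the others of that day were not well above background. Against the lowest signal well above background on the dim arrays, MUC4 was 1.31-fold, 2.11-fold and 2.14-fold higher on days 2, 7 and 14. These are no lower bounds, since only 2, 2 and 1 of the 3 later biopsies were well above background. With normexp background correction the log2 changes were 0.03, 0.27 and 0.38. The day 14 value rests on cow 2, since the fitted log2 change of 1.34 on day 14 was 0.17 without that cow, and cow 3 changed by -0.25.

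MUC15, a small membrane mucin first described in bovine milk fat globules, was well above background on 1 array with each of its probes. The probe at base 1403 was so in cow 2 on day 14 (-6.24), and ranged from -7.56 to -6.24 over the 12 arrays. The probe at base 2946 was so in cow 3 on day 14 (-3.97), where the other biopsies of that day were at -8.84 and -8.58. The 2 probes thus picked out different biopsies, and no fold change is given for MUC15.

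**Figure D2:**
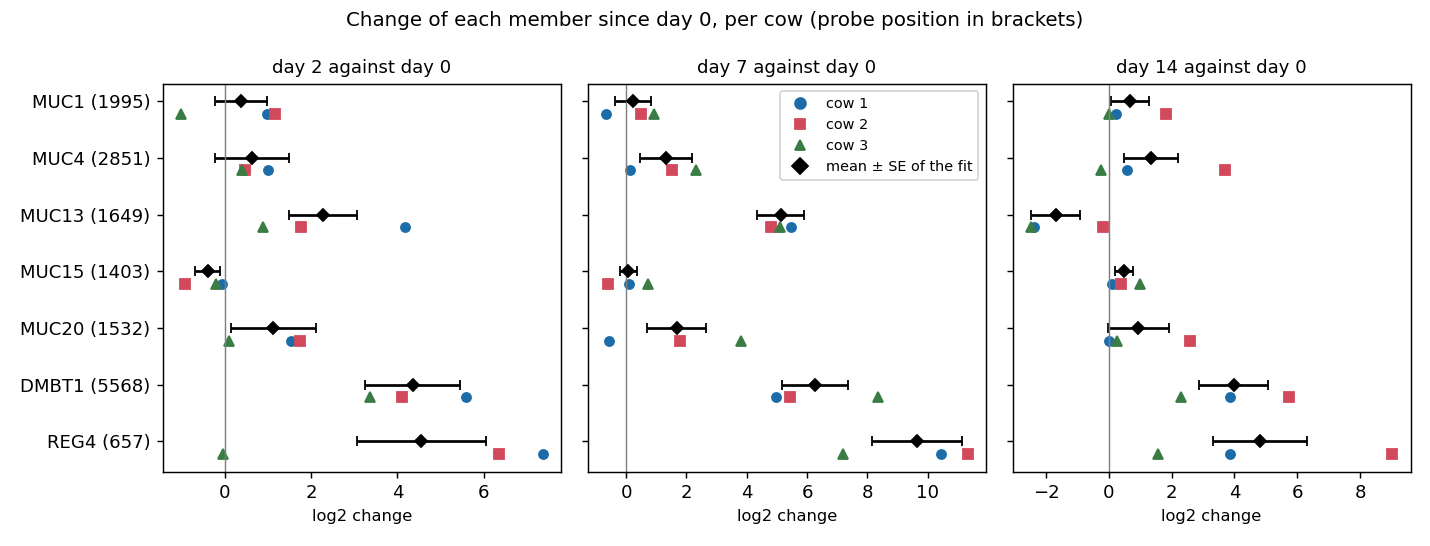
Log2 change since day 0 (x axis) on days 2, 7 and 14 for the probe that stands for each member (y axis), as the mean with the SE of the fit (black diamonds) and the value of each cow (coloured points). On day 7, REG4 changed by 10.44, 11.32 and 7.19 in cows 1, 2 and 3 and DMBT1 by 4.98, 5.45 and 8.35, whereas the values of MUC1 lie on both sides of 0. Fitted values of REG4, MUC4, MUC13 and MUC15 involve biopsies not well above background. MUC15 had no usable probe and is shown by the one at base 1403.

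Of the 6 measured members, 3 did not overlap between day 2 and day 0 (MUC4, MUC13 and DMBT1), 3 between day 7 and day 0 (MUC13, DMBT1 and REG4) and 2 between day 14 and day 0 (DMBT1 and REG4). MUC13 alone did not overlap between days 7 and 2 or between days 14 and 7. The rule that chose the members used these comparisons, and nothing is read from the counts. Of all 12999 genes, 14.3% lay wholly higher and 12% wholly lower on day 2 than on day 0, with no overlap of the 3 biopsies of each day. These shares were 22% and 18.6% for day 7 against day 0, 15.1% and 11.7% for day 14 against day 0, 11.3% and 9.24% for day 7 against day 2, and 9.72% and 10.6% for day 14 against day 7. On a stricter measure, limma's moderated test with Benjamini-Hochberg adjustment called 1.89% of genes higher and 0.992% lower on day 2 than on day 0, 10.8% higher and 8.37% lower on day 7, and 0.0462% higher and 0.0462% lower on day 14. It called 0.169% higher and 0.354% lower on day 7 than on day 2, and 0.0462% higher and 0.1% lower on day 14 than on day 7.

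Within days 2, 7 and 14 most members had the same cow highest. On day 0 cow 1 was highest in 4 of 6 and cow 3 lowest in 4 of 6. On day 2 cow 1 was highest and cow 3 lowest in 6 of 6 measured members. On day 7 cow 3 was highest in 5 of 6, with REG4 the exception, where it was lowest. On day 14 cow 2 was highest in 6 of 6. MUC1, MUC4, MUC20 and DMBT1 were each highest on day 2 in cow 1, on day 14 in cow 2 and on day 7 in cow 3, while MUC13 and REG4 were highest on day 7 in every cow. These are ranks of 3 cows on 1 slide each, and no test was made of them. Some are ranks of signals not well above background, as for MUC4 and REG4 in cow 3 on day 2. How many of all genes rank the cows in this way was not counted, so nothing particular to the members is read from these ranks.

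**Figure D3:**
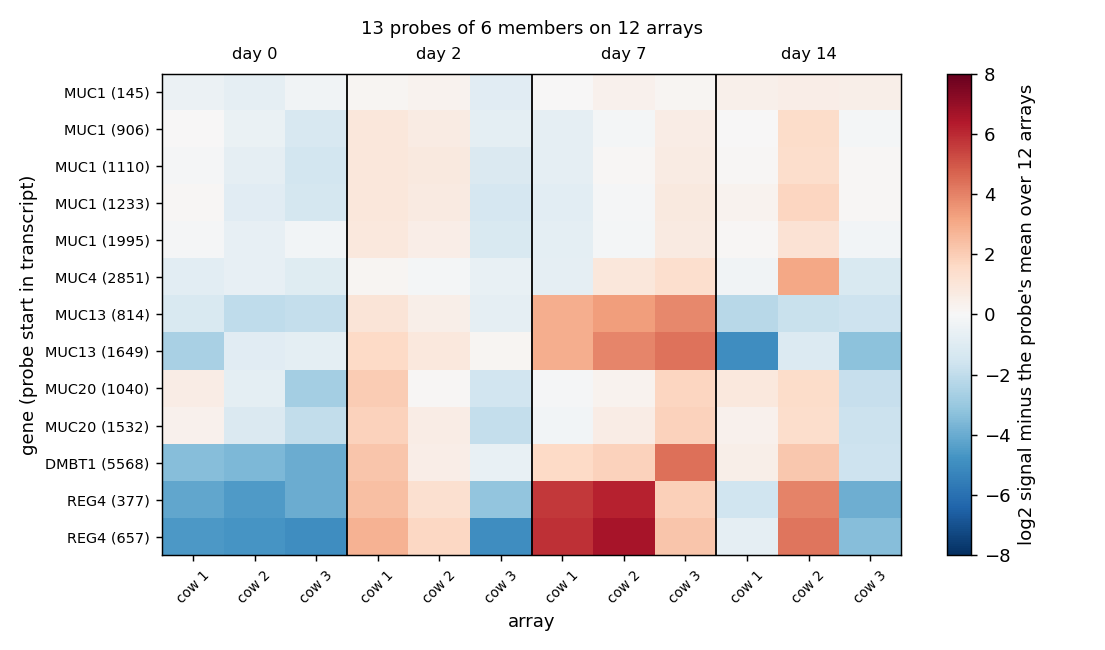
Log2 signal minus the probe's own mean over 12 arrays (colour, from -8 to 8) for the 13 usable probes of 6 members (rows, with the first base in the transcript) on the 12 arrays (columns, by day and cow). Probes of 1 gene share their pattern, the day 7 columns are red for REG4, DMBT1 and MUC13, and on day 14 the column of cow 2 is the reddest for most members.

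Other signals moved with these values. The linear signals of the 11 epithelial markers, in units of the array's 75th percentile, summed to values from 58.0 to 72.9 on day 0. The day 2 sums were 96.1, 87.8 and 30.4 in cows 1, 2 and 3. Those of day 7 were 48.0, 85.4 and 73.8, and those of day 14 were 64.3, 71.8 and 56.3. In cow 1 it was highest on day 2 and lowest on day 7, and in cow 3 highest on day 7 and lowest on day 2, the same days as MUC1 in these cows, whereas in cow 2 it was highest on day 2 and MUC1 on day 14. The day 2 array of cow 3, which holds the lowest value of 6 members on that day, had the lowest epithelial sum and the highest sum of 6 smooth muscle markers, 458, against 42.6 to 61.7 on day 0. The part of these differences in the members' values was not tested, and in such bulk samples fewer epithelial cells and less RNA per cell cannot be told apart. Without that array the day 2 change of REG4 was 5.91 in place of 4.56, that of MUC20 1.88 in place of 1.13 and that of MUC1 1.06 in place of 0.37.

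No epithelial marker of 11 passed limma's test on any day against day 0, with 0, 2 and 0 at an unadjusted p under 0.05 on days 2, 7 and 14, and their median log2 changes were -0.26, -0.18 and -0.26. The summed signal of 7 leukocyte markers was 1.49 to 1.94 on day 0, 4.75 to 5.54 on day 2, 3.19 to 7.97 on day 7 and 3.58 to 3.64 on day 14, above day 0 in each cow, and 3 of 7 were called higher on day 2 and 4 on day 7. Smooth muscle markers summed to 155 to 329 on day 7, with 3 of 6 called higher. The 9 stromal markers summed to 213 to 221 on day 0 and to 219 to 373 later, with none called and 1, 1 and 4 at an unadjusted p under 0.05. The 6 markers of ciliated cells summed to 0.969 to 2.01 on day 0 and to 0.207 to 0.881 on day 7, with none called and 4, 2 and 0 at an unadjusted p under 0.05. The part of leukocytes, muscle and ciliated cells in the members' changes was not tested.

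Under the sample names of the scanner links the members' day pattern was not present. REG4 then had -6.84, 0.52 and 3.59 as its day 0 levels and -2.97, -6.97 and -0.62 as those of day 2. Its day 7 levels were 4.35, 2.05 and -7.22, and its day 14 levels were -7.25, -0.04 and -5.67. Each of the 4 days would then hold a range of over 6 log2 units within 3 cows. DMBT1 was -2.72, 2.87 and 2.26 on day 0 and 2.51, 2.81 and -3.29 on day 7, with a mean difference of -0.13. MUC13 differed by 0.04 between days 7 and 0, with an SD over cows of 2.86 on day 0 and 2.79 on day 7. The spread of REG4, DMBT1 and MUC13 over the 12 arrays does not depend on the names, but every statement on a day does.

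**Figure D4:**
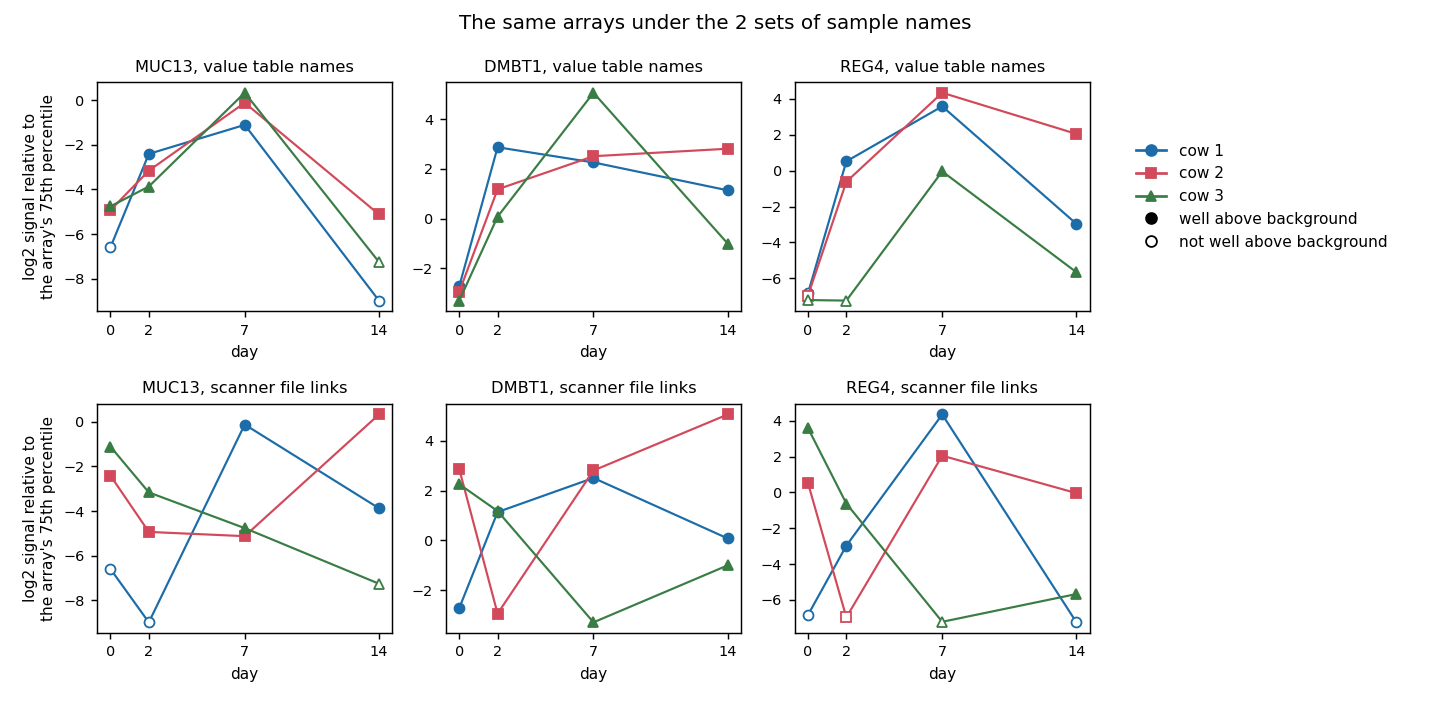
Log2 signal relative to the array's 75th percentile against day for MUC13, DMBT1 and REG4 in 3 cows, with samples named by the deposited value table (upper row) and by the links of the scanner files (lower row), filled points being well above background. In the upper row the day 0 values of REG4 lie between -7.22 and -6.84, and in the lower row between -6.84 and 3.59.

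The genes most like each member over the 12 arrays, by Pearson's r among 12513 genes, were taken as a description, since the arrays share 3 cows and the days. REG4 was most like UCK2 (r = 0.974), DYNC2I2 (0.966) and TMED9 (0.961), and DMBT1 was most like RCN3 (0.968), ACAT2 (0.960) and TMEM160 (0.956). MUC13 was most like NFYA (0.920), SNX1 (0.920) and ST13 (0.919). MUC20 was most like MAPK3 (0.948), RPH3AL (0.937) and a gene that its accession names STARD5 and the file STARD4 (0.916). MUC1 was most like ARHGEF16 (0.915), HTATIP2 (0.893) and ZMIZ1 (0.876), and MUC4 and MUC15 were detected on too few arrays for such a list. Among the members themselves, REG4 and DMBT1 had r = 0.83, MUC20 and MUC1 had 0.80, MUC20 and MUC4 had 0.69, and MUC13 and MUC1 had 0.08.

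A mucin is made by glycosyltransferases that build its O-glycans on a core sugar in the Golgi, and it is then packed into granules and released. To see how this machinery differed between days, 109 measured genes of 149 in 5 lists were read from the fit over all probes. The lists hold other mucins, O-glycan enzymes, other mucosal lectins and mucus proteins, regulators of mucin genes, and proteins of granule release, and none of the 7 members. They were written with earlier results of these data known, so no conclusion is drawn from their shares beside those of all genes. On day 7, 25 of the 109 were higher than on day 0 and 10 were lower, 22.9% and 9.17%, against 10.8% and 8.37% of all genes. The median log2 change was 0.36 in the lists and 0.04 over all genes. The count of 35 was 0 without cow 1 (30 at an unadjusted p under 0.05), 2 without cow 2 and 30 without cow 3. Over all probes the calls in these fits were 0, 213 and 6229, against 6100 with all cows, so the loss was not particular to the lists. Cow 3 shared the direction of every called gene named below for day 7. The count of 35 was 0 under the scanner links, with 3 at an unadjusted p under 0.05. In the fit without the cow as a block the count was 26. Adjusted p-values here are from limma with Benjamini-Hochberg adjustment over 33539 probes. They rest on how far the day differences vary between 3 cows, pooled over the 4 days.

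Among the other mucins, 2 of 7 measured genes were higher on day 7 and none was lower. MUC16, the membrane mucin that carries the CA-125 antigen and coats the uterine lining, was -8.08, -8.37 and -8.55 on day 0 and well above background in no cow. It was -3.68, -4.44 and -7.37 on day 2 and -2.17, -1.17 and -3.29 on day 7, and on day 14 it was -8.18, -2.16 and -8.27. Averaged over cows, MUC16 was at least 20.2-fold higher on day 7 than on day 0 in this processing, which is no bound for each biopsy. It was higher in 3 of 3 cows (limma adjusted p = 0.0148). On day 14 it was well above background in cow 2 alone, the cow in which REG4 and MUC4 were also highest. MCAM, an adhesion molecule of vessel walls also called MUC18, rose by 0.79 ± 0.21 (SE, adjusted p = 0.0333).

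Of the O-glycan enzymes and transporters, 13 of 47 were higher on day 7 and 5 lower. SLC26A2, which brings sulfate into the cell, rose by 3.18 ± 0.33 (SE, adjusted p = 0.0021), from a mean of -5.09 to -1.92. GALNT6, which places the first sugar of an O-glycan, rose by 2.83 ± 0.74 (adjusted p = 0.0348), by 1.18, 2.61 and 4.69 in the 3 cows. C1GALT1, which makes the core 1 structure, rose by 1.69 ± 0.27, and its values in the 3 cows were 1.57, 1.64 and 1.86 (adjusted p = 0.00761). B4GALT5, a galactosyltransferase, rose by 1.51, and ST3GAL6, which adds sialic acid, rose by 1.40. GALNT14, of the same family as GALNT6, was at least 5.19-fold lower on day 7 and well above background in none of the day 7 biopsies (adjusted p = 0.00563).

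Among other mucosal lectins and mucus proteins, 4 of 21 were higher on day 7 and 1 was lower. PIGR, which carries antibodies of the IgA class across epithelium, rose by 2.79 ± 0.67 (SE, adjusted p = 0.0273), by 1.92, 2.13 and 4.30 in the 3 cows. The galectins LGALS3, LGALS1 and LGALS9, which bind galactose-containing sugars, rose by 1.37, 1.05 and 0.67. LGALS4, a galectin of gut epithelium, fell by 1.16 ± 0.24 (adjusted p = 0.0171).

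Of the regulators, 3 of 22 were higher on day 7 and 3 were lower. STAT6 and IL13RA1, which pass on the signal of the cytokines IL-4 and IL-13, rose by 0.99 ± 0.29 and 0.77 ± 0.20 (SE). XBP1, a factor of secretory cells, rose by 0.60 ± 0.14, although its other probes ranged from 0.03 to 1.18. HNF4A, a factor of gut and liver epithelium, fell by 2.37 ± 0.57, CREB3L4 fell by 1.72 ± 0.49 and the epithelial factor KLF5 fell by 1.24 ± 0.34. In the granule release list, 3 of 12 were higher and 1 was lower. UNC13B, which primes vesicles, rose by 1.97, and STX2 and NSF, of the membrane fusion machinery, rose by 1.30 and 1.1. UNC13D, a related priming factor of blood cells, fell by 1.70.

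**Figure D5:**
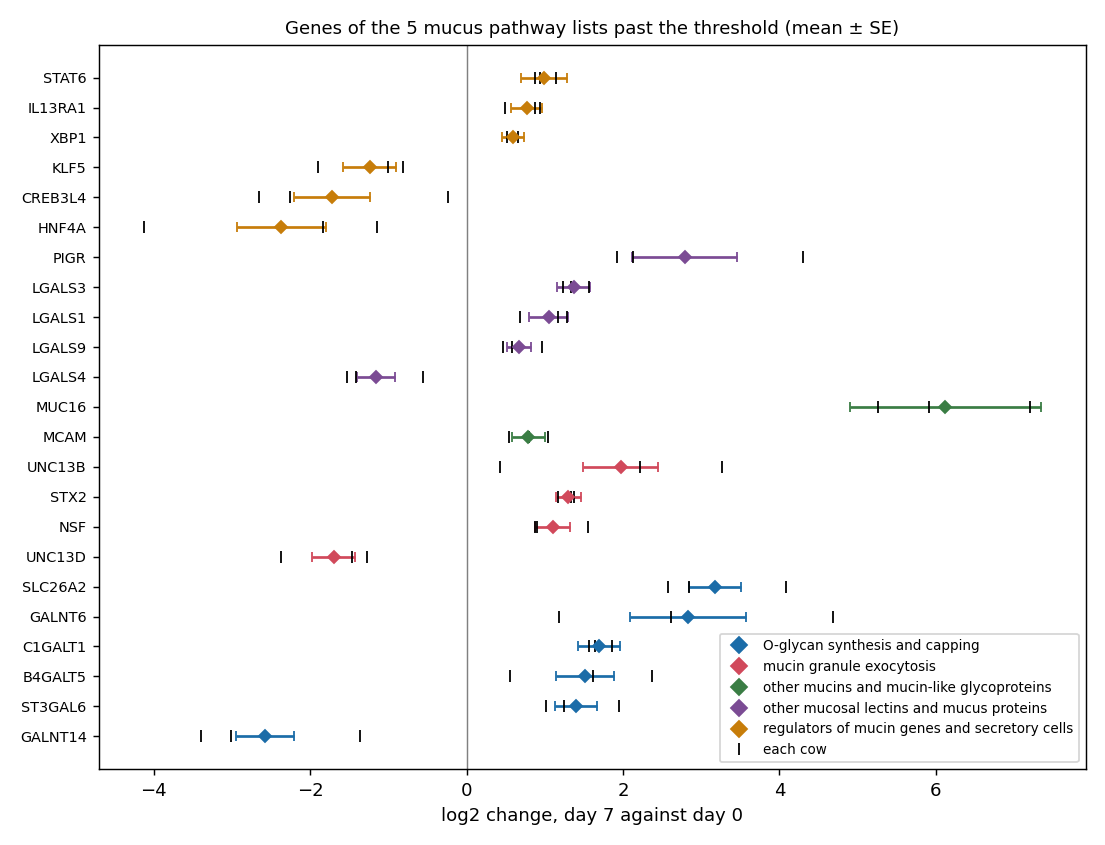
Log2 change between day 7 and day 0 (x axis) of the genes of the 5 lists that passed limma's test with adjustment over all probes, up to 6 per list with the largest change (y axis, coloured by list), as the mean with the SE of the fit and each cow as a tick. MUC16 has the largest change, 6.12, with a day 0 level not well above background, and in every gene shown the 3 cows lie on the same side of 0.

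On day 2, 4 of the 109 genes were higher than on day 0 and none was lower, 3.67% against 1.89% of all genes. They were LGALS3 (1.95 ± 0.21, SE), C1GALT1 (1.43 ± 0.27), LGALS1 (1.40 ± 0.25) and STX2 (1.24 ± 0.16), with adjusted p from limma of 0.0116, 0.0371, 0.0334 and 0.0133 and the same direction in 3 of 3 cows. In a fit on days 0 and 2 alone, 5 genes of the lists were called and LGALS3 was the only one of these 4 among them. All 4 were also called higher on day 7 in the fit over all arrays, a comparison that shares its day 0 biopsies. The count was 0 without cow 1 or without cow 2, and so was the count over all probes. MUC16 had a log2 change of 3.17 ± 1.22 on day 2 with an adjusted p of 0.191 in limma.

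Between days 7 and 2, CHST1, which adds sulfate to galactose, was the only one of 109 past the threshold, higher by 2.22 ± 0.27 (SE, limma adjusted p = 0.029, 3 of 3 cows). That count was 13 without cow 3, of which 4 were higher and 9 lower on day 7, and 0 without cow 1, without cow 2 or without the day 2 array of cow 3. Over all probes the calls in these 4 fits were 2132, 0, 0 and 135, against 163 with all arrays. Between days 14 and 0 and between days 14 and 7 limma called 0 of 109, with 21 and 27 at an unadjusted p under 0.05, and the second count was 2 without cow 3. The median log2 change of the lists was 0.13 on day 14 against day 0 and -0.26 against day 7, beside 0.04 and -0.01 over all genes.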

How the data were processed

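Total RNA of 12 endometrial biopsies was labelled with cyanine-3 and hybridised to single-colour Agilent bovine arrays, per the labels' protocols. The deposited scanner files hold an intensity per spot, made with Agilent Feature Extraction 11.5.1.1 per the file headers (the submitters' processing notes name 10.5.1.1). The authors also deposited a table of log2 values, which matches the log2 processed scanner signal after the array's 75th percentile and each probe's median are subtracted, to a median absolute difference of at most 0.0023. The well-above-background calls are the scanner software's.

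From the intensities, log2 signals minus the array's 75th percentile (824.8 to 1117.6) were computed for 43653 probes. After 31 probes with outlier flags were left out, 33539 well above background on at least 3 arrays were kept. One limma model (limma 3.58.1, R 4.3.3) held the 12 arrays, with terms for day and for cow, 6 residual degrees of freedom and 2.33 prior ones. P-values were adjusted by Benjamini-Hochberg at 0.05, and the steps were tested on simulated data. The pairing comes from the design text, which names the same animals on all days; deviations from day means of the same cow correlated at 0.285 on average (lowest 0.0235, 15 of 18 pairs above 0.1). Saturation occurred at no probe, and precision is limited by the number of arrays.

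Genes were named through accessions and a RefSeq table of another assembly, used for names only; the brightest probe stands for a gene. Members and lists were chosen with earlier results of these data known. Named are all members, up to 6 called genes per list and comparison with the largest change, and the 3 genes most like each member detected on at least 6 arrays.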

Additional observations from a re-analysis of the deposited data

How the results depend on the processing

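The pathway counts (35, 4, 0, 1 and 0 for days 7, 2 and 14 against day 0, day 7 against day 2 and day 14 against day 7) were recomputed under other settings. Without the cow as block (the pairing) they were 26, 4, 0, 1 and 0, so the block moved no count by over 1.5 times. Under the scanner links the counts of 35, 4 and 1 became 0, with 3, 0 and 4 genes at an unadjusted p under 0.05. The links did not lower the calls everywhere. Over all probes they gave 237 calls for day 14 against day 0, against 39 under the table's names. For day 14 against day 7 they gave 215, against 49. A fit on the compared days alone gave 8 for day 7 against day 0 and 0 (23 unadjusted) for day 7 against day 2, with fewer samples. For day 2 against day 0 it gave 5, of which 1 was among the 4. Quantile normalization gave 2 for day 7 against day 2. Normexp background correction gave 2 there, 5 for day 14 against day 0 and 2 for day 14 against day 7. Leaving out 1 cow gave 0 to 30 for day 7 against day 0, 0 to 4 for day 2 against day 0, 0 to 13 for day 7 against day 2 and 0 to 2 for day 14 against day 7. Without the day 2 array of cow 3, chosen after seeing the data, day 7 against day 2 gave 0 (25 unadjusted). The cause was not tested.

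Under the scanner links 13 of 30 member values changed sign, 8 of them among log2 changes of at least 1 in size. On day 2 against day 0 the log2 changes were then -2.32 (MUC13), -0.75 (MUC20), -1.02 (DMBT1) and -2.61 (REG4), on day 7 against day 0 -0.66 (MUC20) and -0.13 (DMBT1), on day 14 against day 0 -3.41 (REG4), and on day 14 against day 7 0.70 (DMBT1). Changes of MUC1, MUC4 and MUC20 also changed sign when 1 cow or array was left out, and 1 change of MUC1 did with normexp, by less than the spread between cows. Beside these 8, over all settings, 12 member values moved by more than the SD over cows and 340 did not, although some of the 340 changed sign. The 340 include settings that cannot move a log2 change in this balanced design, namely no cow block, no filter and the compared days alone. The authors' table holds the same signal as the main fit. The 340 is therefore no measure of how firm the values are. Normexp with quantile normalization gave 6.67 for REG4 and 3.33 for MUC13 on day 7 against day 0, in place of 9.65 and 5.13. Signals near background limit MUC4, MUC15 and the low days of REG4 and MUC13.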

Other observations

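Most probes of further mucins were near background, and those named here were chosen after their values were seen. A probe that the files describe as mucin 5B, a gel-forming mucin, was well above background on 3 arrays. Its level was -0.78 in cow 3 on day 7, against -6.83 and -7.73 in cows 1 and 2, and from -8.59 to -8.09 on day 0. The other arrays with this probe well above background were those of cows 1 and 2 on day 2 (-5.27 and -5.85). The 3 probes described as mucin 2, the gel-forming mucin of the gut, were so on at most 2 arrays, and single probes described as mucin 19, mucin 21 and MUC3B on 0. A second probe described as DMBT1 was well above background on 0 arrays, so the DMBT1 result rests on 1 probe. OVGP1, an oviduct glycoprotein of mucin type, was well above background on all 12 arrays with its brightest probe, which ranged from -2.81 to -1.41.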
